A study of Homo sapiens with 6 samples.

Results

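The genes described here are those of the ATP-binding cassette (ABC) transporter family, taken as the rows of the expression table whose symbol is ABC, a subfamily letter from A to G and a number. They are 41 of the 23344 rows, 12 in subfamily A, 8 in B, 9 in C, 4 in D, 1 in E, 3 in F and 4 in G. A further gene of subfamily B that has a symbol of this form was set aside and is not analysed here, and pseudogenes were not taken. The cells were Huh7, an established human liver cancer line, and RNA sequencing compared 3 libraries of cells given a control lentivirus (shNC) with 3 libraries of cells given a lentivirus for knockdown of VersicanV1 (sh2). Versican, the product of VCAN, is a large matrix proteoglycan. The knockdown libraries share the name of 1 hairpin, no second hairpin was compared, and nothing in the labels tells whether a group's libraries are separate cultures. The p-values therefore reflect only the variation among the 6 libraries, and this may be technical.

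ABC proteins bind and hydrolyse ATP in a conserved nucleotide-binding domain. Most are membrane pumps that use this energy to move lipids, bile constituents, drugs, conjugated metabolites or peptides across a membrane, and hepatocytes use them at the bile canaliculus, at the blood-facing membrane and inside peroxisomes and mitochondria. Proteins of subfamilies E and F have the ATP-binding domains but no membrane-spanning part, and they work on ribosomes and in translation. Several members, among them ABCB1, ABCC1 and ABCG2, are known for expelling anticancer drugs from tumour cells.

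VCAN, the targeted gene, ranged from 4.79 to 8.10 in control libraries and from 1.64 to 1.90 in knockdown libraries, so the groups did not overlap. All 8 hepatocyte markers examined, albumin and alpha-fetoprotein among them, were detected, with sums of 7125 to 8785 in control and 8465 to 10698 in knockdown libraries. Of these, 2 rose (limma, adjusted p below 0.05), against 4.15% of all genes tested: FGB (1529 to 2478, group means) and APOH (98.9 to 146). The other 6 did not pass, and among them APOB and GPC3 had negative log2 differences (-0.26 and -0.05). Of 13 leukocyte and blood markers, 12 were rows of the table, and their sum was 75.6 to 92.0 in control and 108 to 210 in knockdown libraries. CD14 and LYZ made up most of it in each library. CD14 had 45.6 to 70.2 in control and 57.1 to 72.5 in knockdown libraries, and LYZ rose, with 18.3 to 24.8 in control and 37.8 to 68.2 in knockdown libraries (adjusted p = 0.0277). For some other leukocyte markers knockdown replicate 2 stood apart. PTPRC was at 1.96, FCN1 at 5.46, NKG7 at 5.54 and S100A8 at 17.9 there, whereas the highest values elsewhere were 0.16, 0, 0.1 and 0. S100A9 was also highest there, but its groups did not overlap (0.57 to 1.65 in control, 1.92 to 30.6 in knockdown libraries). It did not pass (limma, adjusted p = 0.213). CD3D was detected in every library, at 1.81 to 4.17 in control and 3.09 to 5.80 in knockdown libraries. Of 4 endothelial markers, 2 were rows, summing to at most 0.17. Of 4 fibroblast markers, LUM alone was detected (147 to 183). The 15 mitochondrially encoded genes took 16.0% to 19.2% of the summed values in control and 23.8% to 31.2% in knockdown libraries. The part of these differences in the results below was not tested, beyond the fits without single libraries and with another scaling that stand beside them. In RNA from a culture as a whole, fewer expressing cells and less RNA per cell cannot be told apart.

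Of the 41 genes, 29 were detected, meaning that 3 or more of the 6 libraries had a value of 1 or more, against 58.7% of all rows of the table. The values were treated as FPKM, fragments scaled to transcript length and library depth, so levels can be compared between genes. By rows, 8 of 9 were detected in subfamily C, 7 of 8 in B, 3 of 4 in D, 2 of 4 in G and 5 of 12 in A. The ribosome-associated genes of E and F were all detected (4 of 4, ABCE1, ABCF1, ABCF2 and ABCF3). Family genes without a row, such as ABCC12, are not in these counts, so the shares are not those of whole subfamilies. Low values fell on steps worth 1 fragment, and by these steps a detected gene rested on about 28.0 fragments (ABCG1) to 6437 fragments (ABCA5) in a library.

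The 12 genes not detected were ABCA3, ABCA4, ABCA6, ABCA8, ABCA9, ABCA12, ABCA13, ABCB5, ABCC11, ABCD2, ABCG5 and ABCG8. The sterol pump genes ABCG5 and ABCG8, whose products pair to export plant sterols and cholesterol into bile, were near the floor. ABCG5 was at 0.19, 0 and 0.22 in control replicates 1, 2 and 3, an order kept throughout, and at 0.12, 0.18 and 0.08 in knockdown libraries, and ABCG8 at 0.27, 0.13 and 0.55 in control and at 0.26, 0.33 and 0.58 in knockdown libraries. Neither pair of groups was apart. ABCA12 and ABCA13 did not exceed 0.04 in any library, ABCB5 did not exceed 0.13 and ABCD2, a peroxisomal half-transporter gene, did not exceed 0.09. With at most about 13.0, 8.6 and 10.1 fragments in a library for ABCB5, ABCD2 and ABCG5, a difference of moderate size was not detectable at this depth.

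Nearest to the detection minimum from above were ABCG1, with 3 libraries at 1 or more, ABCB9 with 4 and ABCA10 with 5. ABCA4, a retinal lipid importer gene, lay just below with 2 libraries at 1 or more, at 0.10, 0.38 and 0.55 in control and 1.09, 0.76 and 1.96 in knockdown libraries. ABCA6, with a highest value of 0.87, was the next below it. The plot of the genes by library places each library against the minimum.

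**Figure D1:**
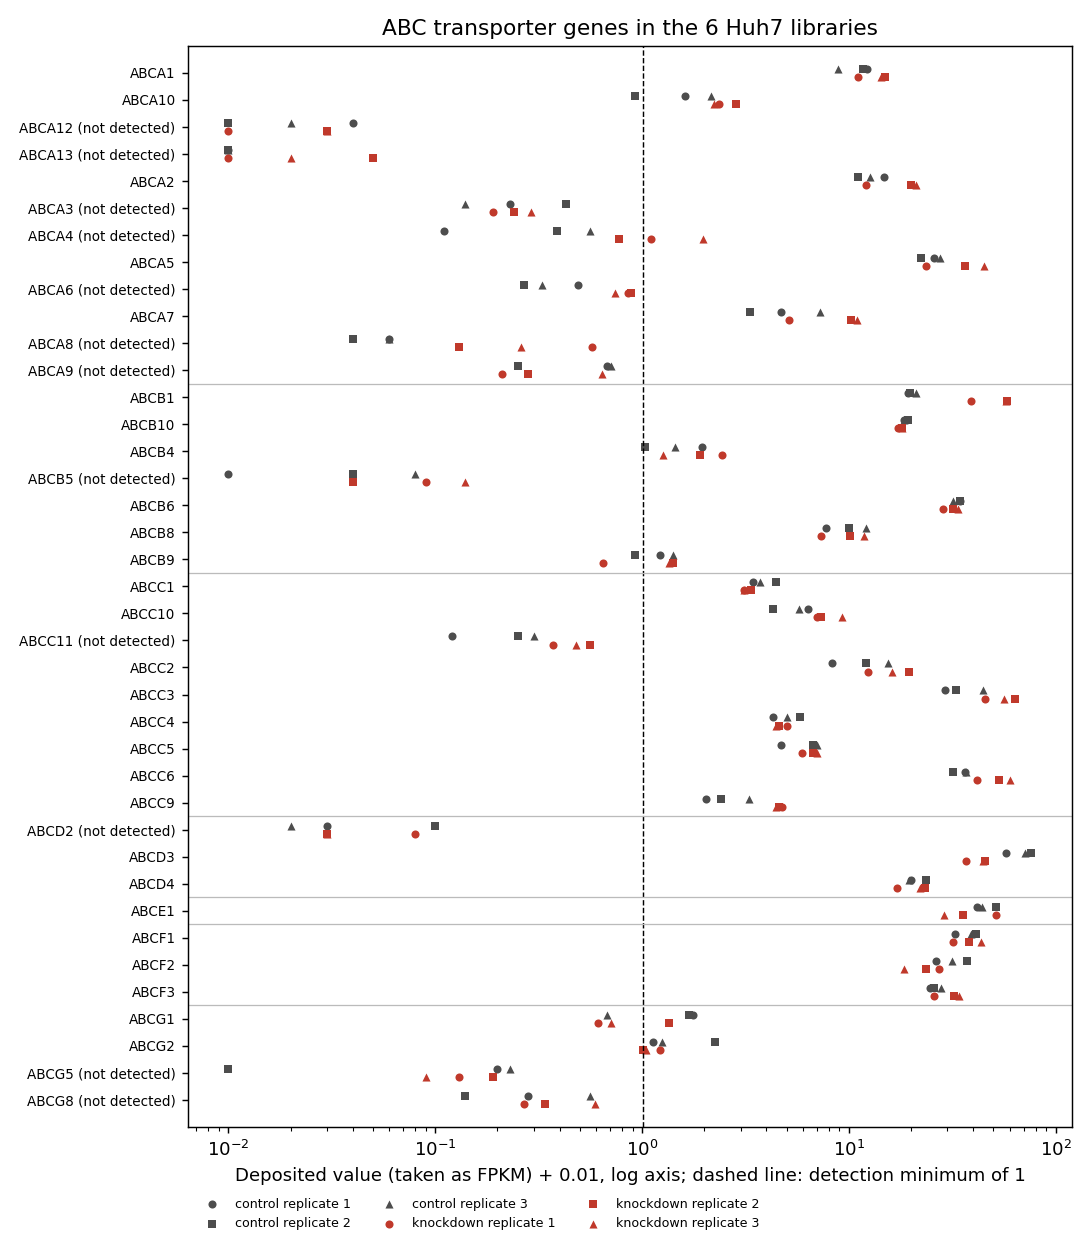
Value of 39 of the 41 ABC transporter genes in every library, as the deposited value plus 0.01 on a logarithmic axis, with control libraries in grey, knockdown libraries in red, marker shapes for replicates 1 to 3, and grey lines between subfamilies A to G. The dashed line is the detection minimum of 1: 27 of the genes shown reach it in at least 3 libraries, and of the 12 genes that do not, 7 belong to subfamily A.

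Of the 29 detected genes, 2 rose (ABCB1 and ABCC9) and 1 fell (ABCD3) in the knockdown libraries, where 8.08% of all 13696 genes tested were called in either direction (4.15% higher and 3.94% lower). So few calls among 29 genes are near the share over all genes. "Rose" and "fell" stand for a Benjamini-Hochberg adjusted p below 0.05 in limma over all genes tested, on log2(value + 1), a scale that understates the change of low genes. Differences given in parentheses with an SE or an adjusted p are knockdown minus control on that scale. The median log2 difference (knockdown minus control) was 0.03 over the 29 genes and -0.03 over all genes tested, and 16 of the 29 had a positive difference, against 46.5% of all genes tested. Groups did not overlap for 9 of the 29, 6 higher and 3 lower, against 33.1% of all genes tested (14.4% higher and 18.7% lower).

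The count rested on single libraries, as did that over all genes. It was 10 without knockdown replicate 1 (7 higher, 3 lower), a fit in which 3342 of all 13696 genes (24.4%) passed. It was 1, ABCB1 each time, without control replicate 1, control replicate 3, knockdown replicate 2 or knockdown replicate 3, where 149, 222, 137 and 200 of all genes passed. Without control replicate 2 it was 0 (limma), with 54 of all genes passing and ABCB1 at an adjusted p = 0.0534. At an unadjusted p below 0.05, 4 members were higher and 1 lower in that fit, against 9.2% and 11.3% of all genes. When mitochondrially encoded genes were left out of the total that each library was scaled to, ABCB1 and ABCC9 rose and no member fell. Over all genes, 568 rose and 539 fell in the deposited scaling, and 673 rose and 221 fell after the rescaling, which moved the median difference of all genes to 0.06.

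By subfamily, the median difference was 0.41 over the 5 detected genes of A, 0.44 over the 8 of C, -0.03 over the 7 of B, 0.01 over the 3 of F and -0.29 over the 2 of G. ABCE1, the only gene of its subfamily, stood at -0.27. These medians describe the members and were not tested. In the A genes the median deviation from the control mean was 0.03 in knockdown replicate 1, 0.61 in replicate 2 and 0.68 in replicate 3, and in the C genes it was 0.17, 0.49 and 0.54. Knockdown replicate 1 thus lay within the range of the control libraries for A (-0.18 to 0.13), and above it for C (-0.20 to 0.13). After the rescaling without mitochondrially encoded genes the medians of A and C were 0.52 and 0.54, while that of B changed sign, to 0.07.

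**Figure D2:**
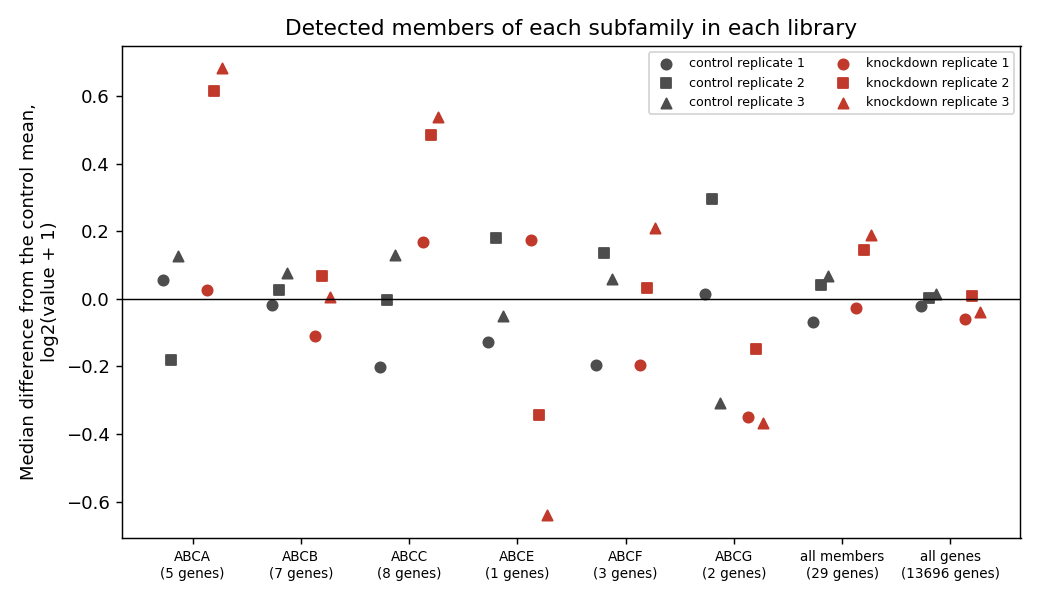
Median over the detected genes of each subfamily other than D of the difference from the control mean, on the log2(value + 1) scale, in each control (grey) and knockdown (red) library, with all detected members and all genes tested at the right. Knockdown replicates 2 and 3 stand highest in subfamilies A (0.61 and 0.68) and C (0.49 and 0.54), and all genes tested stay between -0.06 and 0.01.

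ABCB1 had the largest difference of the family. It encodes P-glycoprotein, the multidrug efflux pump of the canalicular membrane. The control libraries had 19.3, 19.7 and 21.2, and the knockdown libraries 39.0, 58.1 and 57.7. Every knockdown library was above every control library, with replicate 1 the lowest of the knockdown libraries. The mean went from 20.1 ± 1.00 (SD, n = 3) to 51.6 ± 10.9, which is 2.57 times the control mean (log2 difference 1.30, SE 0.16, adjusted p = 0.00969). ABCB1 ranked 11 among the 41 genes by its control mean and 3 by its knockdown mean. It passed the test in 10 of 11 alternatives, the exception being the fit without control replicate 2 (1.29, adjusted p = 0.0534). Without knockdown replicate 2, the library that stood apart in PTPRC, FCN1, NKG7 and S100A8, the difference was 1.2 with an adjusted p = 0.0423. CD14, LYZ, CD3D and S100A9 had values above 0 in every library, so this fit does not remove all leukocyte-marker transcripts.

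RefSeq places 2 starts of ABCB1 on the minus strand of chromosome 7 (GRCh38.p14), and the 300 bases around each, 250 before and 50 after the start, are shown because ABCB1 is the member that changed most. The first lies at chr7:87713246-87713545 and the other, further into the gene, at chr7:87600835-87601134. Capitals mark matches on either strand to CCAAT, the CCAAT box, which reads ATTGG on the opposite strand.
ABCB1 upstream start: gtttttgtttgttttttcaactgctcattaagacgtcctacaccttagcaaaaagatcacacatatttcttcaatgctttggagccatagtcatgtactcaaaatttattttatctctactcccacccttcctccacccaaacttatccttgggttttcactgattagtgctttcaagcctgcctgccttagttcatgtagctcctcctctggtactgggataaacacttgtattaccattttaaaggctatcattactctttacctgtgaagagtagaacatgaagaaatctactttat
ABCB1 downstream start: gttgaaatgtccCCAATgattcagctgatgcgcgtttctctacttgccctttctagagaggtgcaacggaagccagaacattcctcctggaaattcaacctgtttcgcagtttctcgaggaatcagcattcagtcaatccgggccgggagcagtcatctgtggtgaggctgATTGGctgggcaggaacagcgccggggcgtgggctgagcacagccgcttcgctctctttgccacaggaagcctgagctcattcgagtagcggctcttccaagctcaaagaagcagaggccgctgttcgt
The upstream window has 37.7% G and C and no match to CCAAT, to the GC box GGGCGG, to the AP-1 site TGACTCA, to the E-box CACGTG or to TATAAA. The downstream window has 55.3% G and C and 2 CCAAT matches. Of 35116 such windows in the RefSeq table, 34.6% hold CCAAT, 45.0% the GC box, 4.95% the AP-1 site, 7.26% the E-box and 11.5% TATAAA. The expression table has 1 row per gene, so the starts of ABCB1 were not separated, and a match of letters is not a measured binding site.

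No other gene of subfamily B passed. ABCB4, the neighbour of ABCB1 on chromosome 7, encodes the phosphatidylcholine exporter of bile. It had 1.93, 1.02 and 1.44 in control and 2.42, 1.89 and 1.26 in knockdown libraries, and the groups overlapped (0.21, SE 0.22, adjusted p = 0.567). ABCB6, a porphyrin transporter gene, had 34.6, 34.4 and 31.8 in control and 28.6, 31.9 and 33.7 in knockdown libraries (-0.10, SE 0.11). Another protein-coding gene on the same strand covers 54.7% of the annotated exon bases of ABCB6. That gene has no row in the expression table, and how fragments of the shared bases were assigned is uncertain. ABCB10, a mitochondrial transporter gene of heme synthesis, had means of 18.7 ± 0.485 and 17.8 ± 0.488 (SD, n = 3 each). Its groups did not overlap, but the difference was -0.07 (SE 0.11, adjusted p = 0.719). ABCB8, also mitochondrial, had means of 9.95 and 9.72, and the lysosomal peptide transporter gene ABCB9 had 1.18 and 1.13. ABCB9 shares exon bases with genes on the opposite strand, OGFOD2 and ARL6IP4, and the labels do not say that strand was recorded.

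Subfamily C holds the multidrug resistance-associated proteins, pumps for organic anions and conjugates, and the sulfonylurea receptors. ABCC9 encodes the sulfonylurea receptor SUR2, a regulatory subunit of ATP-sensitive potassium channels. Its values were 2.04, 2.39 and 3.30 in control and 4.75, 4.57 and 4.46 in knockdown libraries. The groups did not overlap, and the knockdown libraries lay closer together than the control libraries. The mean went from 2.58 ± 0.650 (SD, n = 3) to 4.59 ± 0.146, a log2 difference of 0.66 (SE 0.17) with an adjusted p = 0.04997, just under the threshold. ABCC9 passed in 2 of 11 alternatives, with an adjusted p from 0.0394 to 0.159. KCNJ8, the neighbouring gene, which encodes a channel subunit that SUR2 binds, had 12.7 ± 1.11 and 14.3 ± 3.61 (0.14, SE 0.18, adjusted p = 0.644). KCNJ8, which the naming rule does not cover, was looked at after the values of ABCC9 were seen.

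ABCC9 starts on the minus strand of chromosome 12, at chr12:21941377-21941676, and its window is shown as that of the other member that rose, with the GC box in capitals.
ABCC9: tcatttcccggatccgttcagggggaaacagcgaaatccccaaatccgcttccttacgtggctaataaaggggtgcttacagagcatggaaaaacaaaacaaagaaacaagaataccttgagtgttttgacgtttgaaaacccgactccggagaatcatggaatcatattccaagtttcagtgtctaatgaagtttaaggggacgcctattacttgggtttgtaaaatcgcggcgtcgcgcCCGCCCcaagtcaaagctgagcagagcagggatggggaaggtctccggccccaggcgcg
This window has 49.7% G and C and 1 GC box match, and none to the other 4 motifs. It shares none of the searched motifs with the downstream window of ABCB1.

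ABCC3 and ABCC6 were the most abundant transporter genes of the C group and missed the threshold narrowly. ABCC3 encodes MRP3, which exports conjugates from hepatocytes towards the blood. It had 29.3, 33.0 and 44.4 in control and 45.7, 63.9 and 56.6 in knockdown libraries. The groups were apart by a small margin, between control replicate 3 and knockdown replicate 1 (0.63, SE 0.18, adjusted p = 0.0638). ABCC6, whose hepatic product drives ATP release and restrains tissue calcification, had 36.4, 31.8 and 36.9 in control and 41.8, 53.1 and 59.95 in knockdown libraries. All knockdown libraries were higher (0.53, SE 0.15, adjusted p = 0.0598). ABCC6 has near-identical pseudogene copies, so its fragments are uncertain. ABCC6P1 had means of 22.3 ± 2.70 and 27.8 ± 6.33, and ABCC6P2 had 9.67 ± 3.63 and 7.83 ± 0.530. The sum of the 3 rows was 67.0 ± 8.34 in control and 87.3 ± 15.8 in knockdown libraries (SD, n = 3 each), and 69.6 in knockdown replicate 1 lay within the control range of 58.3 to 74.9.

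ABCC10, a broad-range drug efflux pump gene, had 6.31, 4.28 and 5.74 in control and 7.03, 7.31 and 9.26 in knockdown libraries, with no overlap (0.47, SE 0.17, adjusted p = 0.122). ABCC2, which encodes MRP2, the canalicular exporter of conjugated bilirubin, had 8.24, 12.1 and 15.4 in control and 12.3, 19.5 and 16.2 in knockdown libraries. Its groups overlapped (0.41, SE 0.23, adjusted p = 0.277). The remaining pumps lay close to 0 difference or below it. ABCC1, encoding MRP1, had 3.43, 4.46 and 3.72 in control and 3.11, 3.35 and 3.11 in knockdown libraries. Every knockdown library was lower, but the difference did not pass (-0.21, SE 0.15, adjusted p = 0.385). ABCC4, encoding the cyclic nucleotide and bile acid exporter MRP4, had 4.28, 5.83 and 5.01 in control and 5.03, 4.57 and 4.42 in knockdown libraries (-0.08, SE 0.15). ABCC5 had means of 6.13 ± 1.25 and 6.54 ± 0.573.

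**Figure D3:**
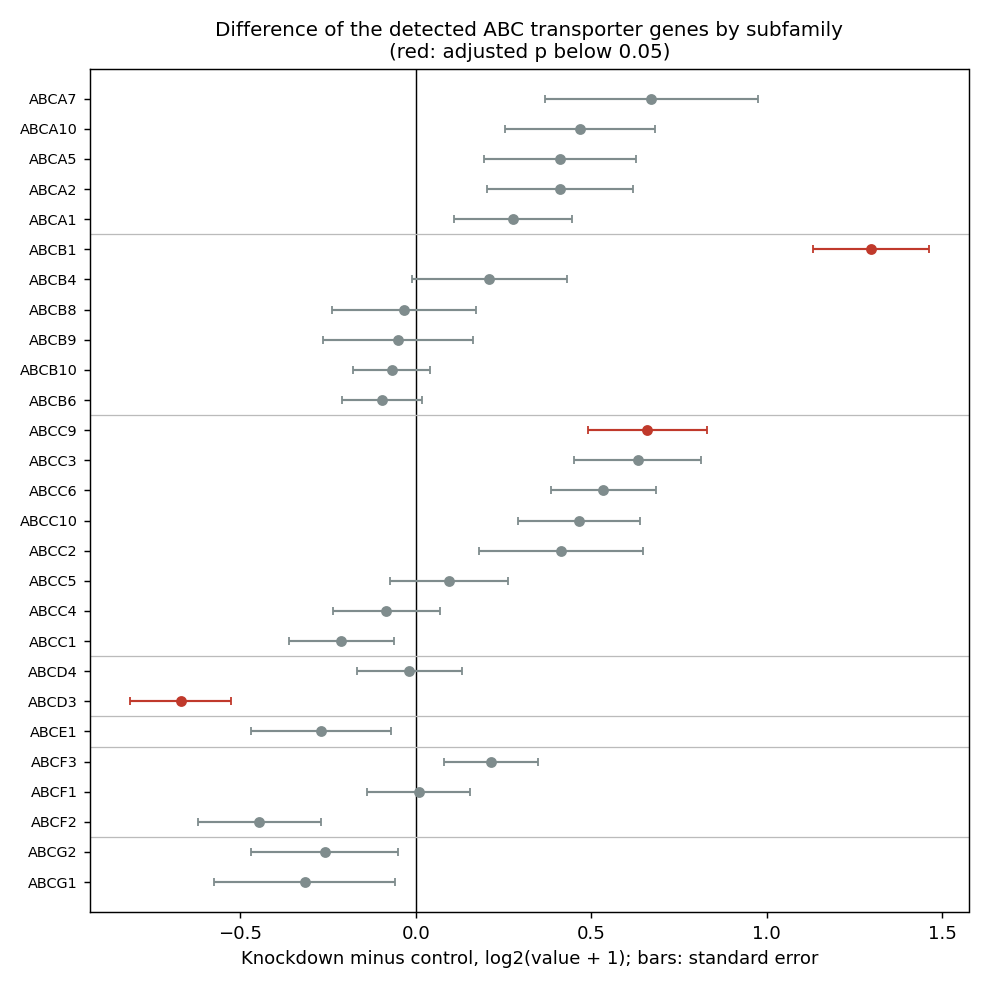
Difference of 27 of the 29 detected genes, knockdown minus control on the log2(value + 1) scale, with its standard error as a bar, ordered by subfamily (A to G, grey lines between) and by size. The 3 genes in red have an adjusted p below 0.05: ABCB1 at 1.30, ABCC9 at 0.66 and ABCD3 at -0.67.

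Subfamily D consists of half-transporters, most of which bring fatty acids and their CoA esters into peroxisomes. ABCD3, which encodes the peroxisomal membrane protein PMP70 and serves branched-chain fatty acids and bile acid precursors, had the highest level of all 41 genes in control libraries. Its values were 57.5, 76.4 and 71.2 in control and 36.9, 45.7 and 44.8 in knockdown libraries, and no libraries overlapped. The mean fell from 68.4 ± 9.76 (SD, n = 3) to 42.5 ± 4.83, a control-to-knockdown ratio of 1.61 (log2 difference -0.67, SE 0.14, adjusted p = 0.0317). By level, ABCD3 ranked 1 in control and 4 in knockdown libraries. It passed in 4 of 11 alternatives, with differences from -0.79 to -0.56 and an adjusted p of up to 0.128. Rescaling without mitochondrially encoded genes gave -0.56 with an adjusted p = 0.0780, and leaving out any library other than knockdown replicate 1 ended the call (adjusted p from 0.0537 to 0.128).

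ABCD3 starts on the plus strand of chromosome 1, and its window, chr1:94418139-94418438, is shown as that of the only member that fell, with GC box matches in capitals.
ABCD3: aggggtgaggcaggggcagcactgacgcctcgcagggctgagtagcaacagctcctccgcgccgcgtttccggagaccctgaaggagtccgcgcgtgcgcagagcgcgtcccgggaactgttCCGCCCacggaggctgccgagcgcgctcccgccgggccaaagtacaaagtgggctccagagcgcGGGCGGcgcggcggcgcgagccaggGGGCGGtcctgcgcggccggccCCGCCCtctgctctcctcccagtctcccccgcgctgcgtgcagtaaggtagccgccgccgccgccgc
It has 75.0% G and C and 4 GC box matches, against 1 in the window of ABCC9 and 0 in either window of ABCB1. Of the 41 genes, 32 matched the RefSeq promoter table. A GC box was found in at least 1 window of 17 of the 23 detected genes with a window and of 3 of the 9 genes not detected, and a CCAAT box in 7 of 23 and 3 of 9. The highest G and C content of a gene's windows had a median of 65.7% in the detected genes and 50.7% in those not detected, with a median of 58.7% over all windows of the table. These counts describe the windows, and genes with several starts had more chances of a match and of a high G and C content. The 58.7% was taken over single windows, not over the highest window of each gene, so it is not a like measure.

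ABCD4, which acts in lysosomal export of vitamin B12, had means of 21.1 ± 2.18 and 20.9 ± 3.33 and did not pass (-0.02, adjusted p = 0.950). AC005519.1, on the same strand, overlaps 7.12% of the exon bases of ABCD4. Among 8 genes of peroxisomal membrane assembly and fatty acid oxidation, 1 fell and 0 rose, against 3.94% and 4.15% of all genes tested. Their median difference was -0.02. The gene that fell was PEX19, which encodes the receptor that brings membrane proteins such as PMP70 to the peroxisome. PEX19 had 9.39, 13.2 and 12.9 in control and 4.68, 6.53 and 6.55 in knockdown libraries, without overlap (-0.89, SE 0.18, adjusted p = 0.0279). PEX3, its docking factor, had means of 16.9 ± 0.777 and 13.5 ± 3.56 and did not pass (-0.34, adjusted p = 0.249).

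The full transporters of subfamily A move phospholipids and sterols. All 5 detected genes had a positive difference, and 0 passed the test (limma), also 0 at an unadjusted p below 0.05, where 13.4% of all genes tested were higher and 16.0% lower. ABCA1, which loads cellular cholesterol and phospholipid onto apolipoprotein A-I, had 12.2, 11.7 and 8.83 in control and 11.03, 14.9 and 14.3 in knockdown libraries. Knockdown replicate 1 lay among the control libraries (0.28, SE 0.17, adjusted p = 0.312). ABCA2, a sterol and sphingolipid transporter gene of the endolysosome, had 14.7, 11.1 and 12.6 in control and 12.2, 20.04 and 21.1 in knockdown libraries (0.41, SE 0.21, adjusted p = 0.230). ABCA5, a lysosomal lipid transporter gene, had 25.9, 22.3 and 27.5 in control and 23.5, 36.5 and 44.9 in knockdown libraries (0.41, SE 0.22, adjusted p = 0.244). In ABCA2 and ABCA5 as well, knockdown replicate 1 sat inside the control range and the other 2 knockdown libraries above it.

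ABCA7, a phospholipid transporter gene also expressed in blood cells, had 4.71, 3.32 and 7.26 in control and 5.15, 10.2 and 10.95 in knockdown libraries (0.67, SE 0.30, adjusted p = 0.180). The summed leukocyte markers were at 109, 210 and 108 in the same knockdown libraries, and their part in the values of ABCA7 was not tested. Without knockdown replicate 1, ABCA2, ABCA5 and ABCA7 passed, with adjusted p of 0.0139, 0.0117 and 0.0254. ABCC3 and ABCC6 passed there too (0.0156 and 0.00635). In that fit 24.4% of all genes passed, against 8.08% with all libraries.

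ABCA10 had 1.6, 0.91 and 2.15 in control and 2.36, 2.83 and 2.21 in knockdown libraries, and the groups were narrowly apart (0.47, SE 0.21, adjusted p = 0.185). It stands in a row of 5 neighbouring genes on chromosome 17, in the order ABCA8, ABCA9, ABCA6, ABCA10 and ABCA5. ABCA8, a cholesterol exporter gene, was at 0.05, 0.03 and 0.05 in control and at 0.56, 0.12 and 0.25 in knockdown libraries. ABCA6 was at 0.48, 0.26 and 0.32 in control and at 0.85, 0.87 and 0.73 in knockdown libraries. For both the groups were apart, whereas ABCA9, between them, had means of 0.537 and 0.367 with overlap. Of the 12 genes not detected, the groups were apart and higher in the knockdown for 4, namely ABCA4, ABCA6, ABCA8 and ABCC11 (0.11 to 0.29 against 0.36 to 0.55). Over all genes with a value that were not detected, groups were apart in 13.8% and higher in the knockdown in 10.2% and lower in 3.55%. These genes were not tested.

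**Figure D4:**
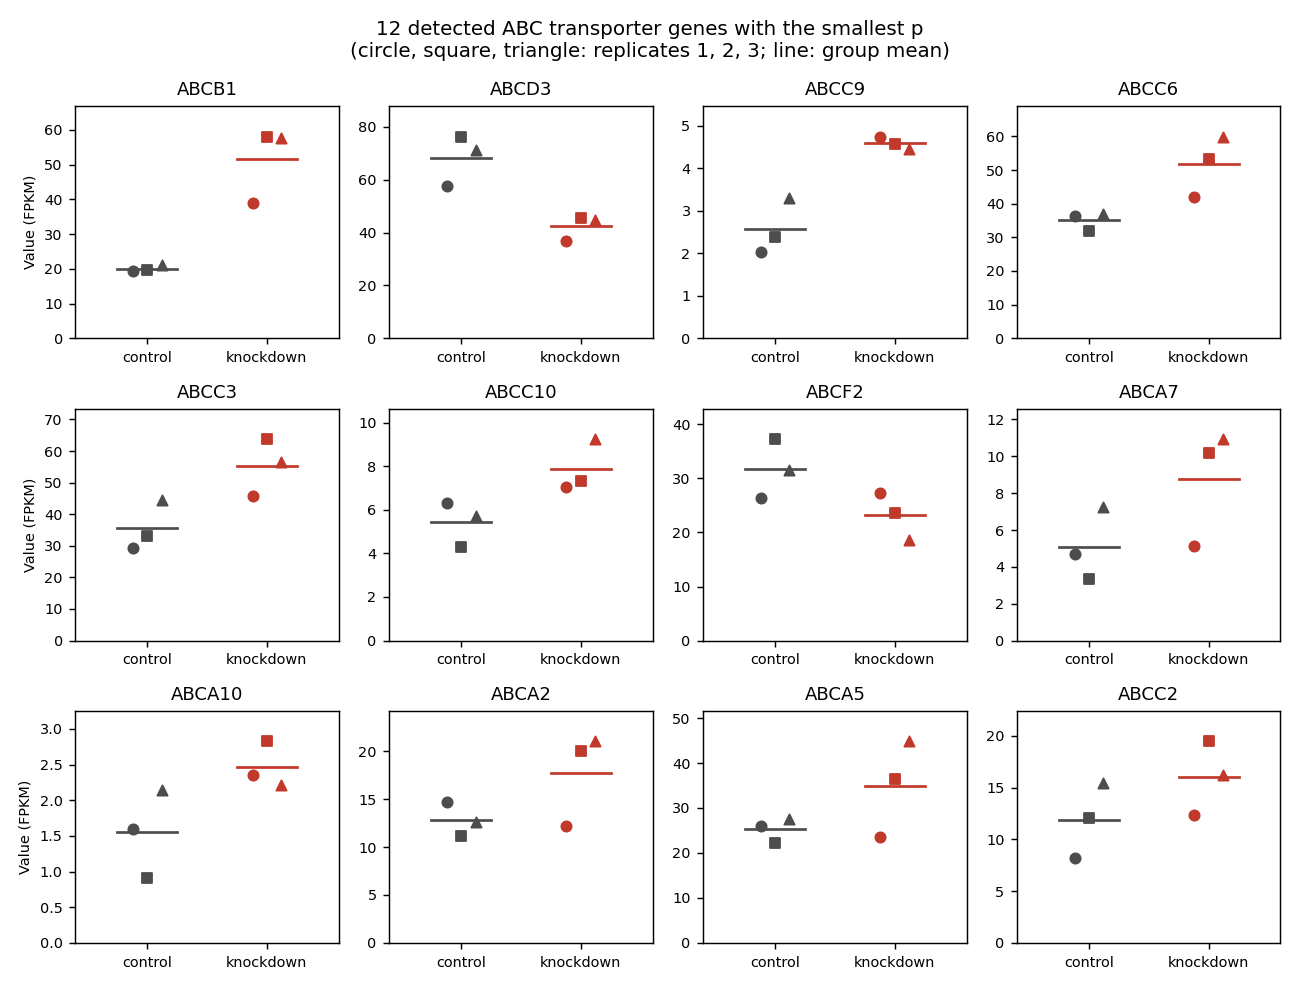
Value of the 12 detected ABC transporter genes with the smallest p in every library, on axes that start at 0, with control libraries in grey, knockdown libraries in red, shapes for replicates 1 to 3 and a line at each group mean (n = 3). ABCB1, ABCD3 and ABCC9 have groups without overlap and passed the test, while in ABCA2, ABCA5 and ABCA7 knockdown replicate 1 lies among the control libraries.

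Subfamilies E and F were expressed at high levels, with means over the 6 libraries from 27.5 to 42.2. ABCE1, which splits the ribosome into its subunits after termination, had 41.6, 51.7 and 43.9 in control and 51.5, 35.7 and 28.9 in knockdown libraries. Here knockdown replicate 1 was near the top of the control range and the other knockdown libraries below it (-0.27, SE 0.20, adjusted p = 0.405). On the opposite strand, ANAPC10 overlaps 7.49% and OTUD4 4.41% of the exon bases of ABCE1. ABCF2 had 26.5, 37.3 and 31.6 in control and 27.4, 23.5 and 18.5 in knockdown libraries, with knockdown replicate 1 just above the lowest control library (-0.45, SE 0.18, adjusted p = 0.139). Both passed when knockdown replicate 1 was left out (adjusted p = 0.0346 and 0.0387), in the fit where 24.4% of all genes passed. Another protein-coding gene on the same strand covers 45.8% of the exon bases of ABCF2. That gene has no row in the expression table either, and how fragments of the shared bases were assigned is uncertain. ABCF1, a partner of initiation factor eIF2, had 32.5, 41.2 and 39.0 in control and 32, 38.3 and 43.4 in knockdown libraries (0.01, SE 0.15). ABCF3 had means of 26.2 ± 1.61 and 30.7 ± 4.31 (0.21, SE 0.13, adjusted p = 0.326). Of 10 genes of ribosome recycling, termination and translation control, 0 passed in either direction (limma), with a median difference of -0.18. At an unadjusted p below 0.05, 3 of the 10 were lower and 0 higher, against 16.0% and 13.4% of all genes tested. The smallest p there belonged to the termination factor gene ETF1, at 78.4 ± 14.0 and 54.8 ± 5.40 (-0.50, adjusted p = 0.0704), and to HBS1L, a ribosome rescue factor gene, at 68.1 ± 11.4 and 49.1 ± 3.44 (-0.45, adjusted p = 0.0784).

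Subfamily G consists of half-transporters that pair up. ABCG2, the breast cancer resistance protein and a urate and drug exporter, had 1.12, 2.24 and 1.24 in control and 1.21, 1.00 and 1.03 in knockdown libraries. The groups overlapped, and control replicate 2 was the highest library (-0.26, SE 0.21, adjusted p = 0.446). ABCG1, which exports cholesterol to mature high-density lipoprotein, had 1.76, 1.67 and 0.67 in control and 0.60, 1.34 and 0.70 in knockdown libraries (-0.32, SE 0.26, adjusted p = 0.448). Of the 3 classical multidrug pump genes, ABCB1 was thus at 20.1 in control libraries, ABCC1 at 3.87 and ABCG2 at 1.53, and ABCB1 alone passed the test. Whether the 3 genes differed from each other in their response was not tested.

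Among 9 partners of cholesterol efflux, 2 rose and 0 fell, against 4.15% and 3.94% of all genes tested, with a median difference of -0.02. APOA1, the acceptor of ABCA1-exported lipid, had 87.6, 45.4 and 55.0 in control and 112, 120 and 150 in knockdown libraries, without overlap (1.05, SE 0.23, adjusted p = 0.0325). LCAT, whose product esterifies the exported cholesterol, had 7.54, 5.76 and 7.85 in control and 15.4, 24.0 and 30.1 in knockdown libraries (1.55, SE 0.23, adjusted p = 0.0131). APOA2, another apolipoprotein of high-density lipoprotein, had 895, 540 and 395 in control and 353, 234 and 258 in knockdown libraries. Every knockdown library was lower, by a difference about as large as that of APOA1 in the other direction, and it did not pass (-1.05, SE 0.28, adjusted p = 0.0529). Of 14 transcriptional regulators of ABC genes, 11 were detected, 1 rose and 0 fell, with a median of -0.05. SREBF2, a sterol-responsive factor, rose from 29.9 ± 2.69 to 45.5 ± 4.74 (0.59, SE 0.13, adjusted p = 0.0320). The liver X receptor gene NR1H3, which activates ABCA1 and ABCG1, had 31.7 ± 2.43 and 25.0 ± 3.05 (-0.33, adjusted p = 0.135), and its groups did not overlap. NR1I2 and NR1I3, the xenobiotic receptor genes known to induce ABCB1 and ABCC2, were not detected, with highest values of 0.26 and 0.78.

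Of 9 genes of mitochondrial iron-sulfur and heme synthesis, which the mitochondrial B transporters serve, 1 fell and 0 rose, with a median of -0.09. Over all genes tested, 3.94% fell and 4.15% rose. CPOX, coproporphyrinogen oxidase, had 26.1, 30.5 and 27.6 in control and 16.8, 18.0 and 15.7 in knockdown libraries (-0.71, SE 0.12, adjusted p = 0.0176). Of 7 genes of the peptide-loading pathway, to which the ABC proteins TAP1 and TAP2 belong under other symbols, 0 passed (limma), with a median of 0.19. At an unadjusted p below 0.05, 2 of the 7 were higher and 0 lower, against 13.4% and 16.0% of all genes tested. The smallest p there was that of TAPBP, tapasin, at 22.2 ± 3.91 and 35.0 ± 8.21 (0.62, adjusted p = 0.0816), followed by B2M at 868 ± 62.1 and 1076 ± 138 (0.30, adjusted p = 0.152). TAP1 had 5.22 ± 1.49 and 8.50 ± 3.53 (0.56, adjusted p = 0.257).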

How the data were processed

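Huh7 RNA was sequenced after TruSeq RNA library preparation, per the labels' protocols. The authors deposited 1 table of values, treated here as FPKM; its unit is not named, and TPM lacking some genes cannot be told apart from it. The submitters' processing notes list RSEM 1.1.17, Bowtie2 2.2.6, Trimmomatic 0.36, DESeq2 1.16.1, edgeR 3.18.1 and bcl2fastq 2.19.0, without their roles, and the mouse build mm10, although the IDs are human, so no coordinates come from the file.

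In single-transcript genes of 600 to 2500 bases (GENCODE 29), low values fell on steps. Values of 1 to 5 steps lay within 0.2 of a whole number for 90.3% to 93.0% of genes, which put relative depth at 0.804 to 1 of the deepest library and, if the unit is FPKM, library size at 14.5 to 18.0 (in units of 1e+06 fragments). Fragment numbers behind a value use the longest annotated transcript and are approximate.

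The 13696 genes that reached 1 in 3 or more libraries were tested on log2(value + 1) with limma 3.58.1 in R 4.3.3 (mean-variance trend, robust moderation, two-sided, Benjamini-Hochberg adjustment over all of them). An exact permutation test of 3 against 3 libraries cannot go below p = 0.1. The test was tried on simulated data, with known folds set on the log2(value + 1) scale. It recovered 13.9% of changes of 1.5-fold, 60% of 2-fold and 91.7% of 4-fold, and 2.91% of its calls were false. Most changes of 1.5-fold were thus missed in the simulation. Each simulated set had only 200 changed genes of 13696, all with a mean of at least 1 on the log2(value + 1) scale. In the real data 1107 genes were called, and the adjusted threshold depends on how many genes change. The simulated noise was also independent between genes, without shifts shared by a whole library. The simulated shares may therefore not hold for the real libraries. The values of some genes are not reported here, although counts and medians include them. Members, lists and motifs were chosen with earlier results of these data known. Named with every library's value were members with an adjusted p below 0.05, the 12 with the smallest p and a fixed set; of each related list, members that passed or else the 2 with the smallest p, with a few others (KCNJ8, APOA2, PEX3, TAP1, NR1H3, NR1I2, NR1I3) added for their known role after their values were seen. The test planned for counts, and its alternatives, were not run because the values are not counts; the test planned for normalized values was used. Promoter windows are from RefSeq (GRCh38.p14), matched by symbol.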

Additional observations from a re-analysis of the deposited data

How the results depend on the processing

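Of the 3 genes called, ABCB1 passed in 10 of 11 alternatives, ABCD3 in 4 and ABCC9 in 2, and all 3 kept their direction in each. The 3 members called (2 higher, 1 lower) became 1 (1 and 0) with no filter on low values, where 221 genes passed in all against 1107. With a pseudocount of 0.1 or quantile normalization, 1 rose and 1 fell, and after rescaling to totals that leave out mitochondrially encoded genes 2 rose and 0 fell. Leaving out 1 library at a time gave 0 to 10 members called, 0 to 7 higher and 0 to 3 lower, and 54 to 3342 genes in all. ABCE1, ABCF2, ABCA2, ABCA5, ABCA7, ABCC3 and ABCC6 passed only without knockdown replicate 1. The subfamily medians shifted by more than 1 SD of the per-library medians of the knockdown group for ABCG with a pseudocount of 0.1 (-0.48) and for ABCB with the rescaling (0.065). Over the fits without 1 library they ran from -0.082 to 0.10 for ABCB and from -0.44 to -0.14 for ABCG, while those of ABCA (0.28 to 0.65) and ABCC (0.35 to 0.56) stayed above 0. The cause of these shifts was not tested. With the replicate number as a replicate block, 1 member rose and 1 fell, 2 in all, and 861 genes passed. Deviations of same-numbered libraries correlated by 0.05, 0.10 and 0.14 (numbers 1, 2 and 3). Control replicates 2 and 3 correlated best with the knockdown library of the same number, and control replicate 1 with knockdown replicate 3 (0.08). These weak correlations do not settle whether the numbers pair libraries. The labels do not say that they do, so the main fit had no block. Detection held for 32 members at a minimum of 0.5, 25 at a minimum of 2 and 26 when all 6 libraries had to reach 1, against 29. Depth limits the members with few fragments.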
